A study of Mus musculus with 76 samples.

Results

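The step between the S1 and S2 fractions of wild-type (WT) fetal liver is an early step of the sorted erythroid series, and it is described here from both mouse lines together. The members were the WT libraries labelled S2 and S1 of a DIS3 line and an EXOSC10 line, 12 of the 76 deposited libraries and, after near-identical libraries were summed, 8 samples. The study as a whole concerns DIS3 and EXOSC10, the ribonucleases of the RNA exosome, and what their loss does to coding and non-coding transcripts of developing red cells. The knockout libraries of the same fractions were not used. The S2 group held 4 samples, 2 from WT embryos of each line, and so did the S1 group. All 8 share the strain C57BL/6NJ, the age of embryonic day 14.5, fetal liver as the tissue, sorting on the surface antigens CD71 and Ter119, and total RNA from which ribosomal RNA was depleted before sequencing. The labels order the fractions S0 to S5 from immature to mature but give no gate boundaries. They describe the genotype only as WT, name no transgene or littermate relation, and do not say whether replicates were separate embryos, so the p-values below measure the spread between samples, which may be technical.

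In mid-gestation the fetal liver is the main site of red cell production. Progenitors committed to the erythroid lineage there depend on the receptors for stem cell factor and erythropoietin, divide rapidly, and then begin to make the proteins of heme synthesis, the red cell membrane and globin while they shrink and condense their nuclei. CD71 is the transferrin receptor, through which the cells take up iron, and Ter119 is a surface antigen that appears as erythroblasts mature. In mouse fetal liver, S1 is known to hold mostly erythroid colony-forming progenitors and S3 mostly basophilic erythroblasts, with S2 a small fraction between them. Tfrc encodes CD71, so its level follows the gate and is given as a description only.

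Sequencing depth ran from 7.49 M to 19.14 M counts over the 12 libraries, with a median of 14.19 M, and reached 34.3 M in the deepest of the 8 samples. In each group the labels name 3 replicates, and in each 1 pair of libraries differed by little more than sampling noise. Their chi-square statistic, divided by its degrees of freedom, was 1.13 to 1.186 in these 4 pairs, whereas in the other pairs compared within groups it was 10.374 to 55.053. The pairs were replicates 1 and 3 of the DIS3 line and replicates 2 and 3 of the EXOSC10 line, and each was summed and counted as 1 sample. The predicted genes Gm26917 and Gm42418 took 26.04% to 49.5% of a sample's counts, with mean shares of 34.2% ± 6.14 in S2 and 40.5% ± 6.77 in S1 (SD, n = 4 each). Levels below are in CPM, each count divided by its sample's TMM-adjusted total. The 4 values of a group are always given in the order DIS3 line replicates 1 and 3, DIS3 line replicate 2, EXOSC10 line replicate 1, and EXOSC10 line replicates 2 and 3. A log2 value is S2 over S1 from the fit with line as a covariate, ± after it is its standard error, and a gene is said to have risen or fallen in S2 where its adjusted p was under 0.05 in edgeR's quasi-likelihood test.

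The labelled cell type showed in the erythroid defining markers, all 6 of which were measured in every sample. Their summed level was 3568 to 4135 CPM in S2 samples and 1620.2 to 1779.9 CPM in S1 samples, so the ranges did not overlap. Tfrc had 1655, 1687, 1576 and 1626 CPM in S2, against 922, 965, 1010.2 and 1082 CPM in S1. Its order matched the labels in all 8 samples, with a higher value in every S2 sample than in any S1 sample. Markers of other blood and liver cells were also present at low levels and differed between the fractions, as described further on.

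Of 14307 genes tested, 2972 rose in S2 (20.8% of those tested) and 2907 fell (20.3%). The counts of each list below are to be read against these shares. At least 2-fold changes were found for 425 genes that rose (2.97%) and 701 that fell (4.9%), and at least 4-fold changes for 134 and 80. The median log2 value over all tested genes was -0.0004. Of the 5879 called genes, 4517 had S2 and S1 values that did not overlap, against 4891 of all 14307 tested genes, or 34.2%. In the 4 pairs of S2 and S1 samples with the same line and number, 2871 of the risers were higher in S2 every time and 2773 of the fallers were lower every time. Most calls were therefore small changes seen in every pair, and the large ones were few. Erythroid membrane, heme and cell division genes were among those that rose, and stem cell, ribosome biogenesis and granulocyte genes among those that fell.

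**Figure D1:**
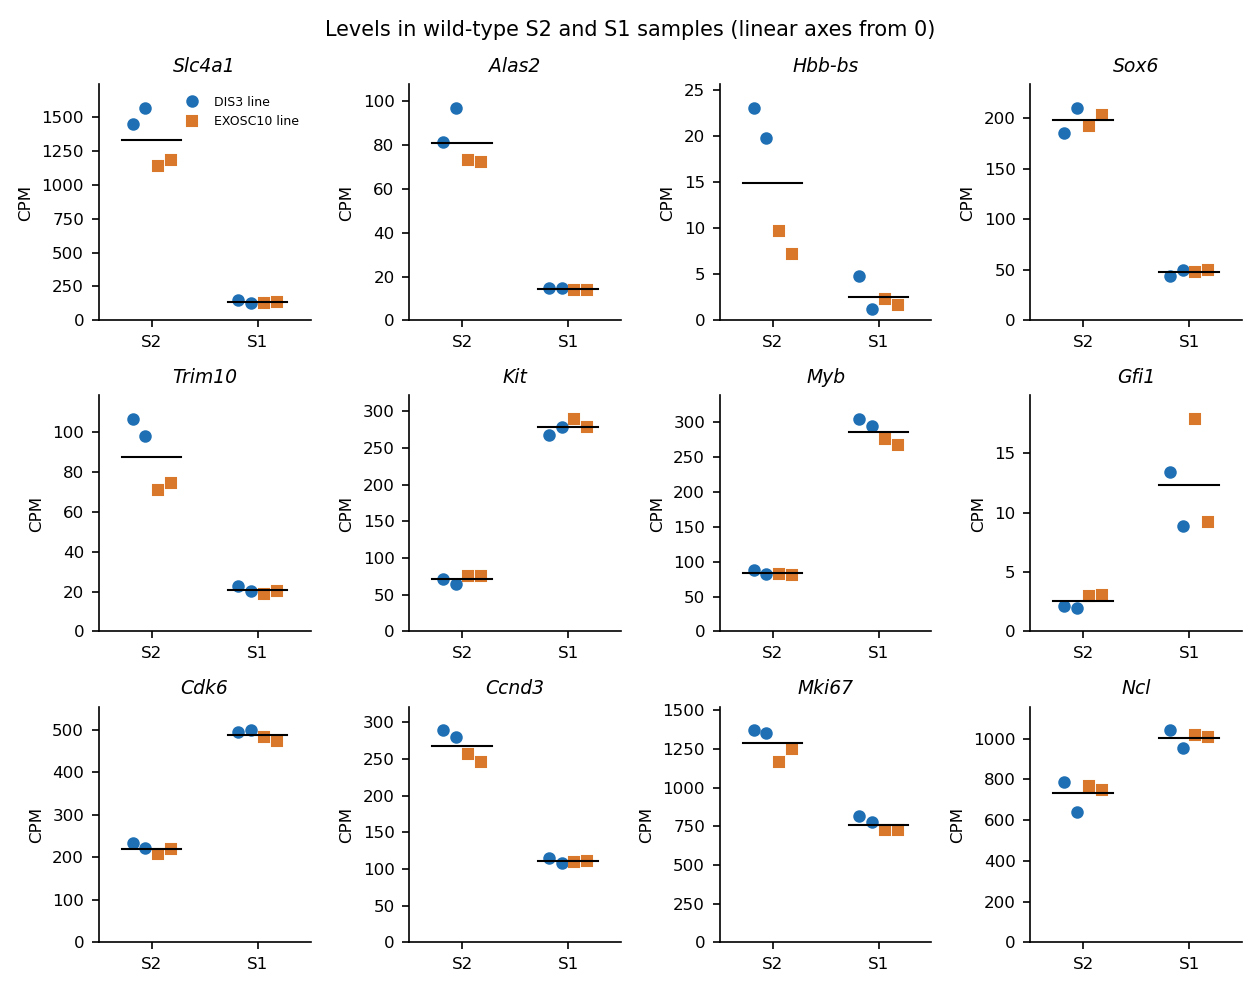
Levels of 12 named genes in every sample, in CPM on linear axes from 0, with S2 at the left and S1 at the right of each panel. Points are samples, marked by line, and horizontal bars are group means; Slc4a1 averaged 1331 CPM in S2 and 134 CPM in S1, whereas Kit averaged 72.1 CPM in S2 and 279 CPM in S1.

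Genes of the red cell membrane and its skeleton rose almost without exception. Of the 31 members, all of which passed the filter on low counts, 30 rose and none fell, with a median log2 value of 0.75 against -0.0004 over all tested genes. Slc4a1 encodes band 3, the anion exchanger that anchors the skeleton to the membrane. Its level was 1444, 1563, 1138 and 1180.2 CPM in S2, against 148, 130.0, 128 and 132 CPM in S1. Every S2 sample lay far above every S1 sample, and the mean was 9.78 times as high (log2 3.29 ± 0.07, adjusted p = 1.32e-11). Ifitm1, described at the end, and Slc4a1 had the largest rises among protein-coding genes of at least 5 CPM that moved alike in every pair.

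Dmtn encodes dematin, which bundles actin at the junctions of the skeleton. It had 196, 209, 174 and 184 CPM in S2, against 55.2, 55.5, 53.2 and 54.9 CPM in S1, again without overlap (log2 1.80 ± 0.05, adjusted p = 5.47e-11). Tmod1, which caps the short actin filaments of the skeleton, averaged 51.6 ± 2.42 CPM in S2 and 14.9 ± 0.839 CPM in S1 (SD, n = 4 each, log2 1.78 ± 0.06, adjusted p = 3.80e-10). Sptb, which encodes the beta chain of spectrin, averaged 971 ± 70.9 CPM in S2 and 359 ± 11.9 CPM in S1 (SD, n = 4 each, log2 1.43 ± 0.05, adjusted p = 7.14e-10). Ank1, which encodes the ankyrin that ties spectrin to band 3, averaged 1169.5 ± 86.8 CPM in S2 and 694 ± 32.9 CPM in S1 (SD, n = 4 each, log2 0.75 ± 0.05, adjusted p = 1.48e-07). Epb42, Kel and Rhd, which encode protein 4.2 and antigens of the Kell and Rh groups, had log2 values of 1.58, 1.03 and 1.16, and all 3 rose. The one member that was not called was Piezo1, a mechanically gated channel, at 590.4 CPM in S2 and 538 CPM in S1 (log2 0.14 ± 0.06, adjusted p = 0.0830).

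The enzymes of heme synthesis rose almost throughout, with a pronounced difference between the isoforms of the first enzyme. Of 20 members of the list, all measured, 16 rose and 2 fell, and the median log2 value was 0.79. Alas2 encodes the erythroid aminolevulinate synthase that starts the pathway, and Alas1 the form used in most other cells. Alas2 had 81.3, 96.9, 73.4 and 72.4 CPM in S2, against 14.9, 15.02, 13.7 and 13.9 CPM in S1 (log2 2.48 ± 0.07, adjusted p = 5.78e-11). Alas1 had 17.7, 16.9, 18.5 and 18.8 CPM in S2, against 50.4, 30.04, 46.5 and 31.6 CPM in S1 (log2 -1.15 ± 0.15, adjusted p = 3.37e-05). In both genes the groups did not overlap, and they moved in opposite directions. Both S1 samples with the higher Alas1 values also stood highest in granulocyte markers, and without them Alas1 fell by 0.78 on the log2 scale, a setting chosen after the data were seen. Per kilobase of exon the mean level of Alas2 was 33.7 CPM and that of Alas1 2.91 CPM in S2, against 5.99 and 6.42 CPM in S1.

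The later enzymes followed in a narrow band. Alad, Uros, Urod, Cpox, Ppox and Fech, which act in that order after Alas2, had log2 values of 0.69, 1.30, 0.76, 0.67, 0.89 and 1.01. All 6 rose. The level of Alad differed between the lines. It had 800, 799, 265 and 274 CPM in S2, against 469, 475, 169 and 183 CPM in S1. Its fractions therefore overlapped, and its call was lost with no line term. Within the lines its log2 values were 0.76 in the DIS3 line and 0.60 in the EXOSC10 line. Fech, the ferrochelatase that inserts iron, averaged 447 ± 17.6 CPM in S2 and 222 ± 11.6 CPM in S1 (SD, n = 4 each). The mitochondrial carriers tied to the pathway rose as well, among them Slc25a38 (log2 0.82 ± 0.07, adjusted p = 6.78e-07) and Tmem14c (log2 1.02 ± 0.07, adjusted p = 1.83e-07). Abcb10, an inner-membrane transporter needed for heme synthesis in erythroid cells, had 496, 537, 471 and 467 CPM in S2, against 167, 167, 168 and 179.6 CPM in S1 (log2 1.53 ± 0.05, adjusted p = 4.01e-10). Its S2 values were all above its S1 values. Hmox1, the heme-degrading oxygenase, averaged 5.22 ± 3.09 CPM in S2 and 1.04 ± 0.432 CPM in S1 (SD, n = 4 each, log2 2.32 ± 0.20, adjusted p = 1.06e-06). Its S2 values were highest in the EXOSC10 line. Macrophages also express Hmox1, and several of their markers were higher in S2 too, as given below; the part of those cells in its value was not tested. Flvcr1, a heme exporter, fell (log2 -0.31 ± 0.06, adjusted p = 0.00116), and Hmox2 and Clpx were not called, at log2 values of -0.09 and 0.03.

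Iron handling moved less evenly. Of 18 members 10 rose and 1 fell, against 20.8% and 20.3% of all tested genes, and the median log2 value was 0.22. Slc25a37 encodes mitoferrin 1, which brings iron into mitochondria for heme synthesis. It had 1110.1, 1294, 1069 and 1129 CPM in S2, against 295, 310.2, 306 and 315 CPM in S1, without overlap (log2 1.91 ± 0.06, adjusted p = 1.84e-10). The ferritin genes Ftl1 and Fth1 rose by smaller amounts (0.64 and 0.60 on the log2 scale), as did Ncoa4, the receptor that carries ferritin to degradation (0.60). Aco1, which encodes an iron-sensing RNA-binding protein, fell (log2 -0.24 ± 0.06, adjusted p = 0.00366). Tfr2, which encodes a second transferrin receptor, averaged 126 ± 8.09 CPM in S2 and 120.5 ± 8.04 CPM in S1 (SD, n = 4 each) and was not called (log2 0.07 ± 0.06, adjusted p = 0.353).

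Globin genes had few counts in these libraries. The depletion kit named in the labels also carries probes against globin mRNA, and its part in these levels was not tested. Only 4 of the 10 globin genes in the files passed the filter, and all 4 rose. A gene that passes only through the fraction where it is higher has to differ, so this count is a description. Hbb-bs and Hbb-bt encode the adult beta chains. Hbb-bs had 23.02, 19.8, 9.70 and 7.25 CPM in S2, against 4.83, 1.25, 2.36 and 1.70 CPM in S1 (log2 2.35 ± 0.23, adjusted p = 4.38e-06). Hbb-bt had 23.5, 19.9, 13.2 and 9.33 CPM in S2, against 5.74, 3.89, 3.20 and 3.02 CPM in S1 (log2 1.97 ± 0.14, adjusted p = 2.77e-07). The lowest S2 value of each was above the highest S1 value. These genes are near-identical copies, and so are the alpha pair Hba-a1 and Hba-a2, so reads may have been split or lost between them in counting. Hba-a1 had 28 counts over all S2 samples and 8 over all S1 samples, and Hba-a2 had 7 in S2 and 0 in S1.

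The promoters of the genes with the largest changes were taken from RefSeq tables on build GRCm38.p6, 250 bases before to 50 after the annotated start. They are shown because they stand for the opposite ends of the step, heme synthesis that rose and progenitor genes that fell. By a fixed rule the heme and membrane side gave Alas2 and Tmod1, and the progenitor side gave Muc13 and Gfi1. Each was searched on both strands for AGATAA, a form of the motif bound by GATA factors, and for CCACACCC, a form of the motif bound by KLF1. Alas2 held 1 match, on the strand opposite to the gene and seen as the capitals TTATCT below, whose first base lies 86 bases before the start. The other 3 promoters held neither motif in this window. Of 32851 promoters of the same length, 3672 held AGATAA (11.2%) and 1170 held CCACACCC (3.6%), so a single match is a description and not a site.
Alas2 promoter, chrX:150547167-150547466: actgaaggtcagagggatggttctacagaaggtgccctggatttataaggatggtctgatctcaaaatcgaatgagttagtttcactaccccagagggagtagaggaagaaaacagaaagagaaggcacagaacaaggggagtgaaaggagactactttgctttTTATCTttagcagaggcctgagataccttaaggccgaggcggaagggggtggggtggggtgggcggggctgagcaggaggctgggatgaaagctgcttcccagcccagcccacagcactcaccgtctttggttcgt
Muc13 promoter, chr16:33793787-33794086: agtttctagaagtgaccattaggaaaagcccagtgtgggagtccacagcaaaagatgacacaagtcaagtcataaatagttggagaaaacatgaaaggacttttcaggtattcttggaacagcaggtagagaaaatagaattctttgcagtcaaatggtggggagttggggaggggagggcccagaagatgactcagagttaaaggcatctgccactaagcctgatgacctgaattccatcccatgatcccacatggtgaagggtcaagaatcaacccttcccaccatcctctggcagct
Alas2 lies on the plus strand of chromosome X and Muc13 on the plus strand of chromosome 16. Alas2 was 5.58 times as high in S2 as in S1, and Muc13, a membrane mucin found on hematopoietic progenitors, averaged 0.393 ± 0.0988 CPM in S2 and 2.55 ± 1.39 CPM in S1 (SD, n = 4 each, log2 -2.59 ± 0.36, adjusted p = 6.90e-05).

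Erythroid transcription factors changed by small amounts, apart from a few. Of 21 members 14 rose and 4 fell, with a median log2 value of 0.27. Gata1, Klf1 and Tal1, the central regulators of the erythroid program, rose by 0.41, 0.42 and 0.50 on the log2 scale. Gata1 had 226, 224, 216 and 221 CPM in S2, against 163, 172, 155 and 178 CPM in S1. The groups did not overlap although the change was small. Sox6, a factor that works with Bcl11a in silencing embryonic globin and promotes red cell maturation, had 186, 210.2, 192 and 204 CPM in S2, against 43.7, 49.6, 48.3 and 50.3 CPM in S1 (log2 2.05 ± 0.06, adjusted p = 5.78e-11). E2f2, a cell cycle factor that rises late in erythroid development, averaged 181 ± 8.64 CPM in S2 and 70.99 ± 6.10 CPM in S1 (SD, n = 4 each, log2 1.36 ± 0.05, adjusted p = 1.25e-09). Both were higher in every S2 sample than in any S1 sample.

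Nfe2 and Foxo3, which act in globin expression and in the maturation of erythroblasts, also rose (0.62 and 0.61). Cbfa2t3 encodes ETO2, a corepressor that restrains erythroid genes in progenitors. It averaged 45.3 ± 1.12 CPM in S2 and 100.2 ± 5.65 CPM in S1 (SD, n = 4 each, log2 -1.15 ± 0.04, adjusted p = 9.91e-10), and its groups did not overlap. Stat5a, which relays the erythropoietin signal, fell by 0.82 on the log2 scale, and its close relative Stat5b by 0.19. Ldb1, Lyl1 and Bcl11a were not called. Bcl11a, a repressor of embryonic globin, averaged 392 ± 35.2 CPM in S2 and 384 ± 24.8 CPM in S1 (SD, n = 4 each, log2 0.03 ± 0.06, adjusted p = 0.686).

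**Figure D2:**
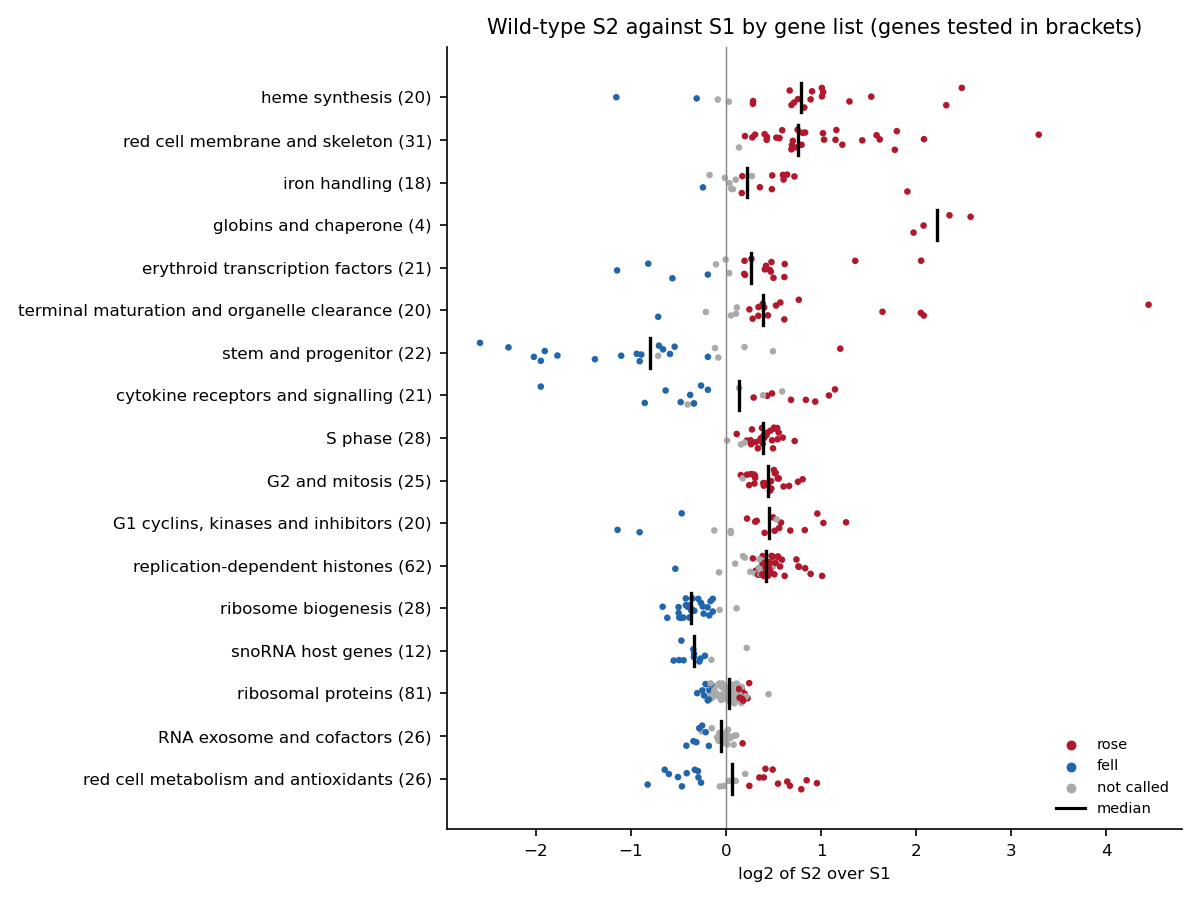
Log2 values (S2 over S1) of the members of each gene list that passed the filter on low counts, 1 row per list. Points are genes, the short bar is the list's median and the vertical line marks 0; the red cell membrane list lies almost wholly to the right of 0, with a median of 0.75, and the stem and progenitor list mostly to the left, with a median of -0.80.

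Genes of stem cells and early progenitors were lower in S2. Of 25 listed, 22 passed the filter, 16 fell and 1 rose, and the median log2 value was -0.80. Kit encodes the receptor for stem cell factor. It had 71.6, 65.2, 76.00 and 75.4 CPM in S2, against 268, 279, 289.5 and 278 CPM in S1, with no overlap (log2 -1.95 ± 0.05, adjusted p = 2.40e-11). Myb, a factor that keeps progenitors dividing, had 88.2, 82.1, 81.6 and 81.3 CPM in S2, against 304, 295, 276 and 267 CPM in S1 (log2 -1.77 ± 0.04, adjusted p = 2.49e-11). Every S2 value of both genes was below every S1 value.

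Gfi1, a repressor used in stem cells and granulocytic progenitors, averaged 2.54 ± 0.597 CPM in S2 and 12.4 ± 4.21 CPM in S1 (SD, n = 4 each, log2 -2.29 ± 0.22, adjusted p = 2.73e-06). Hmga2, a chromatin protein of fetal progenitors, averaged 2.29 ± 0.759 CPM in S2 and 9.77 ± 2.67 CPM in S1 (SD, n = 4 each, log2 -2.02 ± 0.20, adjusted p = 3.42e-06). Myc, which drives growth and ribosome production, had 90.8, 88.4, 59.98 and 62.5 CPM in S2, against 168, 157, 117 and 116 CPM in S1 (log2 -0.89 ± 0.04, adjusted p = 4.50e-09). Erg, Meis1, Flt3 and Cd34 also fell, by 1.10, 0.94, 0.91 and 0.66 on the log2 scale. Granulocyte markers fell in the same samples: their summed level was 141 to 226 CPM in S2 and 295 to 933 CPM in S1, and the part of those cells in the progenitor list was not tested. With both S1 samples highest in granulocyte markers left out, a setting chosen after the data were seen, 10 members fell in place of 16. Without any 1 sample the number was 11 to 18.

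The single progenitor gene that rose was Gata2, a GATA factor of stem cells, mast cells and basophils. It had 4.59, 4.09, 28.6 and 26.8 CPM in S2, against 4.99, 5.15, 7.17 and 5.21 CPM in S1 (log2 1.201 ± 0.36, adjusted p = 0.0165). In the EXOSC10 line both S2 samples were high, whereas in the DIS3 line all 4 samples lay between 4.09 and 5.15 CPM. Mast cell and basophil markers were high in the same 2 samples, as described further on. The call was lost without the EXOSC10 line S1 replicate 1 (log2 1.03) or replicates 2 and 3 (log2 0.76), with DESeq2 (log2 0.99, adjusted p = 0.13) and with no line term (log2 1.51, adjusted p = 0.0629).

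Cytokine receptors and signalling genes split evenly, with 8 of 21 rising and 8 falling, against 20.8% and 20.3% of all tested genes. Epor, the erythropoietin receptor, had 281, 298, 292 and 252 CPM in S2, against 188, 204, 206 and 205 CPM in S1 (log2 0.48 ± 0.06, adjusted p = 1.69e-05). All S2 samples lay above all S1 samples. Jak2, the kinase bound to that receptor, rose (log2 0.43 ± 0.05, adjusted p = 1.56e-05), and so did Pim1 (log2 0.68 ± 0.06, adjusted p = 2.06e-06), Cish (log2 0.94 ± 0.14, adjusted p = 1.77e-04) and Socs3 (log2 1.15 ± 0.24, adjusted p = 0.00160), which are targets of its STAT5 signal. Socs1 and Socs2, also in the list, were not called. With 1 sample left out their log2 values were -1.15 to 0.33 and 0.30 to 0.51. Ptpn6, a phosphatase that dampens the receptor's signal, fell (log2 -0.86 ± 0.10, adjusted p = 2.18e-05). Spred1 and Spred2, inhibitors of the Ras pathway, fell by 0.64 and 0.48 on the log2 scale. Dusp6 and Spry1, also in the list, did not fall. Dusp6 rose, with log2 values of 0.53 to 1.02 when 1 sample was left out, and Spry1 was not called. The call of Dusp6 was lost with DESeq2, with no line term and with all WT samples in 1 fit. Nr3c1, the glucocorticoid receptor that sustains progenitor division, fell (log2 -0.34 ± 0.04, adjusted p = 9.38e-06). Csf2rb2 rose (log2 1.08 ± 0.32, adjusted p = 0.0163), with 1.81, 2.65, 10.01 and 10.8 CPM in S2, against 2.48, 0.695, 3.96 and 2.63 CPM in S1. As with Gata2, the high values were those of the S2 samples of the EXOSC10 line. Its call was lost without the EXOSC10 line replicates 2 and 3 of S1 (log2 0.71) or of S2 (log2 0.90), with DESeq2 (log2 1.05), with no line term (log2 1.297) and with all WT samples in 1 fit (log2 1.24), at adjusted p-values of 0.0535 to 0.0991.

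Cell division genes rose as a body, each by a small amount. In the S phase list 25 of 28 members rose and none fell, with a median log2 value of 0.39, and in the list of G2 and mitosis 24 of 25 rose and none fell, with a median of 0.44. No member of either list reached a 2-fold change. Rrm2, the small subunit of ribonucleotide reductase, had 345, 328, 480.3 and 469 CPM in S2, against 207, 200.4, 263 and 312 CPM in S1 (log2 0.72 ± 0.05, adjusted p = 2.61e-07). Mki67, a protein of dividing cells, had 1371, 1354, 1167 and 1251 CPM in S2, against 818, 778, 724 and 723 CPM in S1 (log2 0.76 ± 0.05, adjusted p = 4.73e-08). In both genes the lowest S2 value was above the highest S1 value. The groups did not overlap in 27 of the 28 S phase genes and 22 of the 25 genes of G2 and mitosis, against 34.2% of all tested genes. Ung and Gins2 of the S phase list, at log2 values of 0.01 and 0.16, were not called.

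The cyclins D and their kinases moved in different directions. Of 20 G1 regulators, all measured, 13 rose and 3 fell, and the median log2 value was 0.45. Ccnd3, the cyclin D that erythroblasts use to set division number and size, had 289, 279.5, 257 and 246 CPM in S2, against 116, 108, 109 and 111 CPM in S1 (log2 1.26 ± 0.05, adjusted p = 5.91e-10). Ccnd2 averaged 157 ± 12.3 CPM in S2 and 217 ± 11.1 CPM in S1 (SD, n = 4 each, log2 -0.47 ± 0.04, adjusted p = 1.92e-06), and Ccnd1 averaged 1.88 ± 0.762 CPM in S2 and 3.56 ± 1.59 CPM in S1 (SD, n = 4 each, log2 -0.91 ± 0.18, adjusted p = 0.00120). Cyclin D3 thus rose while cyclins D1 and D2 fell. Cdk6, a kinase partner of these cyclins, had 233, 223, 208 and 219 CPM in S2, against 495, 499, 482 and 472 CPM in S1 (log2 -1.14 ± 0.04, adjusted p = 5.10e-10), whereas Cdk4, the other partner, was not called (log2 0.05 ± 0.05, adjusted p = 0.429). Its means were 281 CPM in S2 and 271 CPM in S1. Rb1, the retinoblastoma protein that restrains E2F factors, rose (log2 1.02 ± 0.05, adjusted p = 1.06e-08), and so did the kinase inhibitor Cdkn2c (log2 0.96 ± 0.11, adjusted p = 1.88e-05). Cdkn1a was not called (log2 0.53 ± 0.22, adjusted p = 0.0738).

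Replication-dependent histone genes, which are transcribed in S phase and whose mRNAs end in a stem-loop in place of a poly(A) tail, rose with them. Of 68 such genes 62 passed the filter, 42 rose and 1 fell, with a median log2 value of 0.42. Hist1h1b, a linker histone gene, had 755, 649.8, 732 and 723 CPM in S2, against 521, 479, 549.7 and 601 CPM in S1 (log2 0.41 ± 0.06, adjusted p = 1.06e-04). Their summed share of all counts was 0.745% ± 0.0678 in S2 and 0.526% ± 0.0624 in S1 (SD, n = 4 each). The ratio was 1.42, and every S2 sample was above every S1 sample, but the exact two-sided permutation p of 0.0286, the smallest that 4 against 4 samples allow, became 0.0743 after adjustment over 13 shares. With Gm26917 and Gm42418 left out of the totals the ratio was 1.29 (exact permutation p = 0.0286, adjusted p = 0.114). Many of these genes are close copies of each other, so the counting could have split their reads. The number that rose was 34 to 55 when 1 sample was left out.

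Ribosome biogenesis moved the other way. Of 28 members of the list 26 fell and none rose, with a median log2 value of -0.36. Ncl encodes nucleolin, an abundant nucleolar protein that acts in ribosomal RNA transcription and processing. It had 785, 639, 769 and 748 CPM in S2, against 1042, 952, 1016 and 1006 CPM in S1 (log2 -0.45 ± 0.06, adjusted p = 7.38e-05). Every S2 sample was below every S1 sample. Rrp9 and Wdr12, which take part in processing of the small and the large subunit's RNA, had the largest falls, by 0.67 and 0.62 on the log2 scale. Polr1b, a core subunit of RNA polymerase I, averaged 133 ± 4.76 CPM in S2 and 188 ± 8.88 CPM in S1 (SD, n = 4 each, log2 -0.50 ± 0.05, adjusted p = 2.42e-06). Ubtf and Rrn3, factors of polymerase I initiation, were not called (0.11 and -0.07). No member changed 2-fold.

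The host genes of small nucleolar RNAs, non-coding transcripts whose introns carry the guides for ribosomal RNA modification, fell likewise. Of 12 that passed the filter 10 fell and none rose, with a median log2 value of -0.34. Gas5, host to several such guides, had 254, 276, 284 and 277 CPM in S2, against 292, 320.1, 334 and 327 CPM in S1 (log2 -0.22 ± 0.05, adjusted p = 0.00156). Snhg17 averaged 75.2 ± 9.42 CPM in S2 and 106 ± 12.8 CPM in S1 (SD, n = 4 each, log2 -0.49 ± 0.06, adjusted p = 2.59e-05). The small nucleolar RNAs themselves were mostly below what the libraries could measure: 147 of 1558 annotated genes passed the filter, 20 fell and 2 rose, smaller shares than the 20.3% and 20.8% of all tested genes. Without the DIS3 line S1 replicates 1 and 3 the number that fell was 11, it was 12 without that line's S2 replicates 1 and 3 and 13 without the EXOSC10 line S1 replicate 1 or S2 replicates 2 and 3, and in the other leave-one-out fits it reached 22. Snora73b, a box H/ACA RNA, averaged 58.6 ± 22.03 CPM in S2 and 62.4 ± 6.34 CPM in S1 (SD, n = 4 each) and was not called (log2 -0.12 ± 0.20, adjusted p = 0.658).

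Ribosomal protein genes had no common direction. Of 81 that passed the filter 13 rose and 10 fell, both smaller shares than among all tested genes, and the median log2 value was 0.03. Rpl4, a protein of the large subunit, averaged 731 ± 47.6 CPM in S2 and 681 ± 40.00 CPM in S1 (SD, n = 4 each) and was not called (log2 0.10 ± 0.05, adjusted p = 0.145). The number that rose depended on single samples: it was 4 without the DIS3 line S1 replicate 2 or the EXOSC10 line S1 replicate 1, 5 without the DIS3 line S2 replicates 1 and 3, 8 without the EXOSC10 line S2 replicate 1, and 22 without the EXOSC10 line S1 replicates 2 and 3. Of the 17 measured genes of the mitochondrial genome, mt-Co1 alone was called, with 2119.7, 2996, 1937 and 2377 CPM in S2, against 1818, 2387, 1774 and 1676 CPM in S1 (log2 0.30 ± 0.11, adjusted p = 0.0396). The fractions overlapped in that gene. It was not called with DESeq2 (adjusted p = 0.127), with no line term (adjusted p = 0.124) or with all WT samples in 1 fit (adjusted p = 0.340). Its call was lost without the DIS3 line S1 replicates 1 and 3 (log2 0.23), the DIS3 line S2 replicate 2 (log2 0.20), the EXOSC10 line S1 replicate 1 (log2 0.31) or replicates 2 and 3 (log2 0.28), or the EXOSC10 line S2 replicates 2 and 3 (log2 0.24).

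The RNA exosome itself changed little over the step. Of 26 measured subunits and cofactors 7 fell and 1 rose, against 20.3% and 20.8% of all tested genes, and the median log2 value was -0.05. Dis3 had 60.1, 55.7, 68.8 and 73.9 CPM in S2, against 63.1, 65.5, 75.3 and 89.7 CPM in S1 (log2 -0.18 ± 0.06, adjusted p = 0.0240), and its call was lost without the S2 sample of DIS3 line replicate 2 or EXOSC10 line replicate 1, and without the S1 sample of DIS3 line replicate 2 or EXOSC10 line replicates 2 and 3. Exosc10 had 79.5, 76.03, 76.6 and 69.03 CPM in S2, against 76.9, 74.7, 72.5 and 74.8 CPM in S1 and was not called (log2 0.01 ± 0.05, adjusted p = 0.944). The fractions overlapped in both genes. The call of Dis3 was also lost with no line term (log2 -0.19, adjusted p = 0.240) and with all WT samples in 1 fit (log2 -0.17, adjusted p = 0.297). Among core subunits Exosc5 had the largest fall, averaging 46.7 ± 1.29 CPM in S2 and 62.7 ± 4.13 CPM in S1 (SD, n = 4 each, log2 -0.42 ± 0.05, adjusted p = 2.41e-05). Ttc37, a part of the cytoplasmic Ski complex that feeds RNA to the exosome, fell as well (log2 -0.34 ± 0.06, adjusted p = 4.66e-04). Zc3h18, a cofactor that links the exosome to capped RNA, averaged 134 ± 5.35 CPM in S2 and 132 ± 6.61 CPM in S1 (SD, n = 4 each) and was not called (log2 0.02 ± 0.05, adjusted p = 0.763).

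Genes of terminal maturation and organelle clearance had begun to rise. Of 20 members 15 rose and 1 fell, with a median log2 value of 0.39. Alox15 encodes a lipoxygenase that attacks the membranes of mitochondria in reticulocytes. It had 0.453, 0.646, 4.54 and 5.66 CPM in S2, against 0.0978, 0, 0.169 and 0.165 CPM in S1 (log2 4.45 ± 0.40, adjusted p = 1.79e-06), and a level near 0 in S1 makes the size of the rise imprecise. Its high values were those of the EXOSC10 line S2 samples, where basophil markers were also high, and the part of other cells in it was not tested. Trim10, a ubiquitin ligase of erythroid cells, had 107, 97.9, 70.9 and 74.4 CPM in S2, against 22.7, 20.4, 18.7 and 20.4 CPM in S1 (log2 2.05 ± 0.07, adjusted p = 4.98e-10). Btg2, an antiproliferative gene that p53 can activate, averaged 88.6 ± 10.8 CPM in S2 and 21.1 ± 5.58 CPM in S1 (SD, n = 4 each, log2 2.08 ± 0.08, adjusted p = 9.91e-10). The groups overlapped in none of these 3 genes, which for Alox15, near 0 in S1, is a description only. Bnip3l, the receptor that marks mitochondria for removal, and Xpo7, the nuclear export factor needed to condense the nucleus, rose by 0.44 and 0.57 on the log2 scale.

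Among chromatin genes 12 of 21 rose and 5 fell, with a median log2 value of 0.17. Among all tested genes 20.8% rose and 20.3% fell, so the share that fell was near that of all genes. Hdac5, Lbr and Lmna, which encode a histone deacetylase, the lamin B receptor and lamin A, had the largest rises (0.91, 0.64 and 0.59). Dnmt3b and Dnmt3a, the enzymes that set new DNA methylation, fell by 1.38 and 0.60 on the log2 scale, while Dnmt1, the enzyme that copies it at replication, rose (log2 0.26 ± 0.04, adjusted p = 1.83e-04). Dnmt3b had 8.94, 9.11, 9.47 and 10.8 CPM in S2, against 25.3, 30.5, 21.6 and 24.01 CPM in S1, without overlap. Regulators of fetal and embryonic globin included both directions, 5 of 17 rising and 7 falling, against 20.8% and 20.3% of all tested genes. Lin28a and Igf2bp2, RNA-binding proteins of fetal cells, fell (log2 -1.53 ± 0.43, adjusted p = 0.0113 and log2 -1.50 ± 0.19, adjusted p = 3.28e-05). Lin28b was not called (log2 0.04 ± 0.04, adjusted p = 0.459). Without the DIS3 line S1 replicates 1 and 3, 4 members fell and the call of Lin28a was lost (log2 -1.09).

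Metabolic genes divided by isoform and pathway. Of 26 members 11 rose and 10 fell, against 20.8% and 20.3% of all tested genes, with a median log2 value of 0.07. Pklr encodes the pyruvate kinase of red cells and liver, and Pkm the form of most proliferating cells. Pklr had 996, 992, 941 and 894 CPM in S2, against 589.6, 624, 557 and 627 CPM in S1 (log2 0.67 ± 0.05, adjusted p = 3.67e-07). Pkm had 47.04, 49.3, 56.5 and 54.4 CPM in S2, against 95.95, 91.6, 89.6 and 88.4 CPM in S1 (log2 -0.82 ± 0.06, adjusted p = 1.76e-07). Neither gene's groups overlapped, and the isoforms moved in opposite directions. Gapdh, Aldoa, Gpi1, Pgk1, Eno1 and Ldha, enzymes of glycolysis shared by most cells, fell by 0.60, 0.51, 0.46, 0.29, 0.30 and 0.33 on the log2 scale. Bpgm, which makes the bisphosphoglycerate that tunes oxygen binding in red cells, rose (log2 0.85 ± 0.08, adjusted p = 4.32e-06). Car2, a carbonic anhydrase, averaged 915 ± 72.9 CPM in S2 and 471 ± 45.99 CPM in S1 (SD, n = 4 each, log2 0.96 ± 0.06, adjusted p = 5.21e-08). Prdx2 and Gpx1, antioxidant enzymes of red cells, rose by 0.79 and 0.49 on the log2 scale.

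Stress and survival genes showed no common direction. In the list of the integrated stress response and amino acid supply 7 of 17 rose and 4 fell, against 20.8% and 20.3% of all tested genes. Eif2ak1 encodes HRI, the kinase that couples heme supply to translation in erythroid cells, and it averaged 155 ± 9.74 CPM in S2 and 97.9 ± 5.87 CPM in S1 (SD, n = 4 each, log2 0.66 ± 0.06, adjusted p = 1.04e-06). Ppp1r15b, a regulatory subunit of the phosphatase that reverses that signal, averaged 478 ± 10.4 CPM in S2 and 338 ± 13.6 CPM in S1 (SD, n = 4 each, log2 0.50 ± 0.04, adjusted p = 1.43e-06). Phgdh and Psat1, enzymes of serine synthesis, fell by 0.50 and 0.35 on the log2 scale. Of 25 measured p53 targets 6 rose and 6 fell, shares near the 20.8% and 20.3% of all tested genes, with a median log2 value of 0.01. In the Bcl2 family Bcl2l1, which encodes the survival factor Bcl-xL, rose (log2 0.65 ± 0.08, adjusted p = 2.29e-05), with 34.6, 38.2, 31.2 and 31.9 CPM in S2, against 21.3, 19.3, 24.1 and 21.2 CPM in S1. Bcl2 fell, averaging 3.51 ± 1.56 CPM in S2 and 6.54 ± 0.805 CPM in S1 (SD, n = 4 each, log2 -0.89 ± 0.18, adjusted p = 0.00175). Mcl1, another survival factor, was not called (log2 0.04 ± 0.04, adjusted p = 0.545).

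Outside the lists, the protein-coding genes with the largest rises at 5 CPM or more, moving alike in every pair, included Ypel4, Ackr1, Fn3k and Padi2. Ackr1 encodes the Duffy antigen, a chemokine receptor of the red cell surface. It had 13.5, 13.8, 15.5 and 13.7 CPM in S2, against 1.79, 2.36, 3.04 and 2.52 CPM in S1 (log2 2.59 ± 0.13, adjusted p = 1.06e-08). Fn3k encodes a kinase that removes sugar adducts from proteins such as hemoglobin, and it averaged 8.93 ± 1.73 CPM in S2 and 1.54 ± 0.440 CPM in S1 (SD, n = 4 each, log2 2.65 ± 0.17, adjusted p = 1.03e-07). Ypel4, of a family of small zinc-binding proteins, averaged 16.9 ± 4.75 CPM in S2 and 2.24 ± 0.344 CPM in S1 (SD, n = 4 each, log2 2.90 ± 0.15, adjusted p = 1.54e-08). Padi2, a peptidylarginine deiminase, had 4.71, 4.88, 25.3 and 28.6 CPM in S2, against 1.17, 2.23, 3.37 and 3.24 CPM in S1 (log2 2.59 ± 0.23, adjusted p = 1.31e-06). Its high values were those of the EXOSC10 line S2 samples, where basophil markers were also high, and the part of those cells in it was not tested. In all 4 genes the S2 and S1 values did not overlap.

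The largest falls by the same rule included Clstn1, Spry4, Ass1 and Hhex. Spry4, an inhibitor of signalling from receptor tyrosine kinases, had 0.755, 0.932, 2.31 and 2.08 CPM in S2, against 6.75, 6.67, 9.78 and 11.1 CPM in S1 (log2 -2.58 ± 0.17, adjusted p = 1.13e-07). Ass1, the argininosuccinate synthase, averaged 2.31 ± 0.698 CPM in S2 and 10.8 ± 0.651 CPM in S1 (SD, n = 4 each, log2 -2.23 ± 0.14, adjusted p = 7.95e-08). Hhex, a homeobox factor of stem and lymphoid progenitors, averaged 1.34 ± 0.302 CPM in S2 and 6.58 ± 0.609 CPM in S1 (SD, n = 4 each, log2 -2.27 ± 0.17, adjusted p = 3.33e-07), and Clstn1, a calsyntenin, averaged 2.50 ± 0.636 CPM in S2 and 15.5 ± 0.735 CPM in S1 (SD, n = 4 each, log2 -2.65 ± 0.13, adjusted p = 8.69e-09). The groups did not overlap in any of them. Fcnb, also among the 12 largest falls, is a granulocyte marker, and Cd5l, among the 12 largest rises, is a macrophage marker.

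Long non-coding RNAs moved in both directions. Of 736 that passed the filter, from 7763 annotated, 85 rose and 83 fell, both smaller shares than the 20.8% and 20.3% of all tested genes. Redrum, a long non-coding RNA known from mouse erythroid maturation, had 73.1, 67.6, 57.1 and 60.2 CPM in S2, against 23.96, 26.3, 20.6 and 24.8 CPM in S1 (log2 1.43 ± 0.07, adjusted p = 4.98e-09). Its groups did not overlap. Lockd, transcribed from just downstream of Cdkn1b, averaged 6.97 ± 0.857 CPM in S2 and 3.36 ± 0.666 CPM in S1 (SD, n = 4 each, log2 1.11 ± 0.15, adjusted p = 5.70e-05), and Cdkn1b itself rose less (log2 0.31 ± 0.06, adjusted p = 0.00163). Gm15915, annotated as antisense, had the largest fall among long non-coding RNAs of at least 5 CPM, with 5.08, 4.45, 5.39 and 6.12 CPM in S2, against 24.9, 24.5, 20.7 and 23.2 CPM in S1 (log2 -2.14 ± 0.11, adjusted p = 8.00e-09). The strand setting of the counting was not stated in the sources used here, so reads of an antisense gene and its partner may not be separated. Firre, a nuclear RNA transcribed from the X chromosome, averaged 10.7 ± 1.29 CPM in S2 and 21.2 ± 2.74 CPM in S1 (SD, n = 4 each, log2 -0.96 ± 0.11, adjusted p = 1.38e-05). Among the named long non-coding RNAs, Dleu2 and H19 rose (0.81 and 0.71), Airn and Pvt1 fell by 0.83 and 0.32 on the log2 scale, and Malat1, an abundant nuclear RNA, averaged 2188 ± 157 CPM in S2 and 1831 ± 191 CPM in S1 (SD, n = 4 each, log2 0.26 ± 0.08, adjusted p = 0.0172). Malat1's call was lost without the DIS3 line S2 replicate 2 (log2 0.21) and with all WT samples in 1 fit (log2 0.27). Of 264 divergent long non-coding RNAs, which begin no more than 1000 bases from a coding gene transcribed the opposite way, 27 rose and 19 fell. Both were smaller shares than the 20.8% and 20.3% of all tested genes.

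Markers of other cells differed between the fractions, in both directions. A low marker that passes the filter only through the fraction where it is high has to differ, so the counts of calls in these lists are a description. The same holds for the p-values and the separation of single low markers, such as C1qb and Prss34. Granulocyte markers were lower in S2, with all 12 falling and a median log2 value of -1.70. Their sums, in CPM without TMM scaling, were 226, 134, 211 and 262 in S2, against 1008, 284, 600.4 and 337 in S1. The S1 samples of DIS3 line replicates 1 and 3 and of EXOSC10 line replicate 1 stood highest. Mpo, the myeloperoxidase, had 147, 95.8, 149.5 and 152 CPM in S2, against 573, 180.1, 408 and 173 CPM in S1 (log2 -1.29 ± 0.32, adjusted p = 0.00573). Lymphoid markers fell in 6 of 8 measured cases, with sums of 1.96, 2.11, 4.52 and 6.18 CPM in S2, against 8.74, 6.27, 21.9 and 18.05 in S1. Neither sum overlapped between the fractions. For both shares the exact two-sided permutation p was 0.0286, and the adjusted p 0.0743. The summed shares of megakaryocyte markers (0.00627% ± 6.51e-04 in S2 and 0.00493% ± 2.44e-04 in S1 (SD, n = 4 each)) and of stellate and mesenchymal markers (5.68e-04% ± 7.34e-05 in S2 and 4.15e-04% ± 6.84e-05 in S1 (SD, n = 4 each)) had the same p values, but an unadjusted exact permutation p of 0.143 and 0.2 with Gm26917 and Gm42418 left out of the totals. Cd3e, a T cell marker, had no counts in any sample.

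Of 17 measured macrophage markers 15 were called higher in S2, but several were near 0 in S1, among them Siglec1 and Timd4. The summed levels were 42.8, 43.7, 81.6 and 104 CPM in S2, against 46.9, 17.0, 45.5 and 31.6 in S1. These sums overlapped between the fractions (exact two-sided permutation p = 0.171, adjusted p = 0.371). Lyz2, which granulocytes share, was not called and had 16.1, 11.8, 17.02 and 20.3 CPM in S2, against 27.6, 9.73, 27.99 and 12.7 CPM in S1 (log2 -0.28 ± 0.27, adjusted p = 0.440). C1qb, a complement subunit made by tissue macrophages, had 1.48, 2.01, 5.24 and 5.32 CPM in S2, against 0.228, 0, 0.422 and 0.439 CPM in S1 (log2 3.47 ± 0.28, adjusted p = 6.55e-07). Siglec1 and Timd4, receptors of resident macrophages, averaged 1.73 ± 1.23 CPM in S2 and 0.128 ± 0.147 CPM in S1 (SD, n = 4 each) and 1.07 ± 0.634 CPM in S2 and 0.0743 ± 0.0543 CPM in S1 (SD, n = 4 each). No S2 value of C1qb overlapped an S1 value, which is a description only, since its S1 values were near 0. Vcam1, by which the central macrophage of an erythroblast island holds erythroid cells, averaged 3.55 ± 1.86 CPM in S2 and 1.28 ± 0.560 CPM in S1 (SD, n = 4 each, log2 1.39 ± 0.28, adjusted p = 0.00126).

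Of 5 measured mast cell and basophil markers 4 were called higher in S2, and each of those 4 averaged under 1 CPM in S1. The sums of the list were 14.9, 11.2, 50.7 and 77.2 CPM in S2, against 19.95, 8.14, 14.96 and 10.2 in S1 (exact two-sided permutation p = 0.229, adjusted p = 0.413). The high sums were those of the EXOSC10 line S2 samples. Prss34 and Mcpt8 are proteases of basophils, and Cpa3 is a protease that mast cells share. Prss34 had 0.514, 0.143, 5.24 and 6.95 CPM in S2, against 0, 0, 0.169 and 0.137 CPM in S1 (log2 5.38 ± 0.41, adjusted p = 4.20e-07). Cpa3 had 1.90, 1.58, 5.39 and 7.70 CPM in S2, against 0.815, 0.278, 0.843 and 0.604 CPM in S1 (log2 2.49 ± 0.36, adjusted p = 9.59e-05). In the DIS3 line the summed markers were lower in S2 than in S1 in the first pair and higher in the second. Hepatocyte markers were called in 1 of 8 measured cases, Dlk1, which fell, and 10 of the 18 did not pass the filter. One S1 sample, EXOSC10 line replicate 1, had 65.7 CPM of hepatocyte markers, against 7.08 to 22.4 in the other 7. Without it, 3 hepatocyte markers rose. In bulk samples fewer cells of a type and less RNA of that type per cell cannot be told apart, and the part of these cells in the other differences was not tested.

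**Figure D3:**
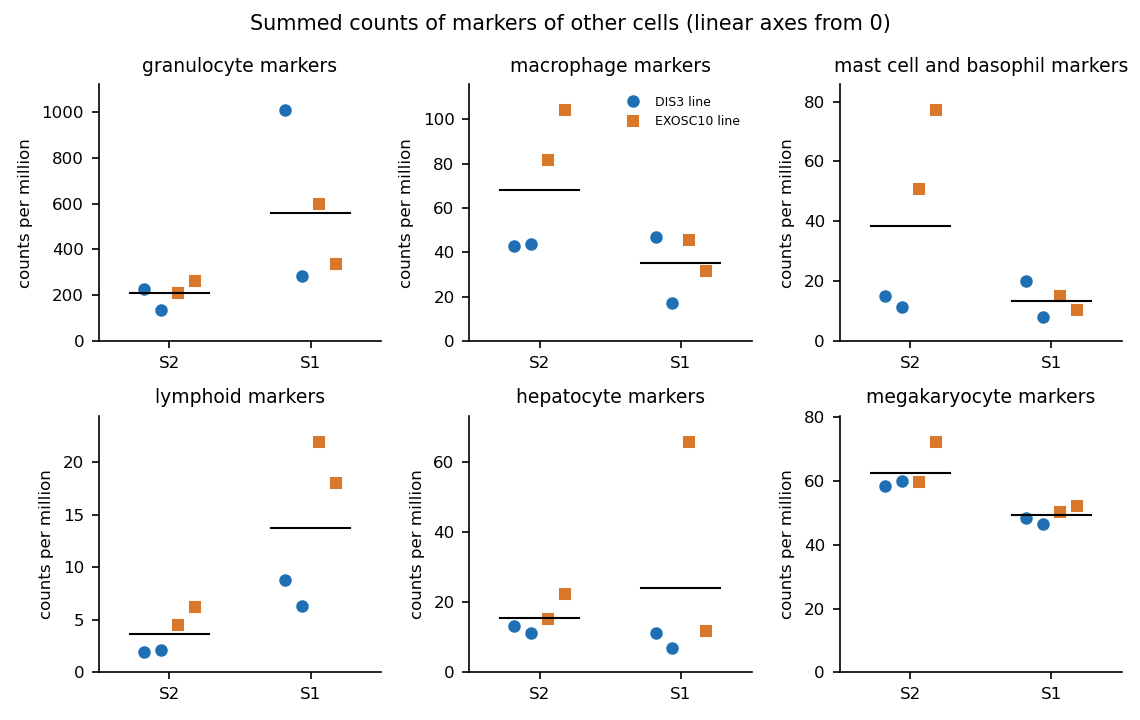
Summed counts of marker genes of other cell types in each sample, as CPM without TMM scaling on linear axes from 0, with S2 at the left and S1 at the right of each panel. Points are samples, marked by line, and horizontal bars are group means; granulocyte markers lie at 134 to 262 CPM in S2 and 284 to 1008 in S1, and mast cell and basophil markers are high in the S2 samples of the EXOSC10 line.

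The step was next compared between the lines. In the DIS3 line alone, with 2 samples a fraction, 1969 of 13882 tested genes rose (14.2%) and 1964 fell (14.1%), and in the EXOSC10 line 1613 of 13806 rose (11.7%) and 1546 fell (11.2%). Of the 13420 genes tested in both, 3893 were called in the DIS3 line and 3062 in the EXOSC10 line. The 2520 genes called in the same direction were 64.7% of the DIS3 line's calls and 82.3% of the EXOSC10 line's, and 3 were called in opposite directions. The log2 values of the lines had a Pearson correlation of 0.783 and a Spearman correlation of 0.757 across these genes, which are not independent replicates.

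**Figure D4:**
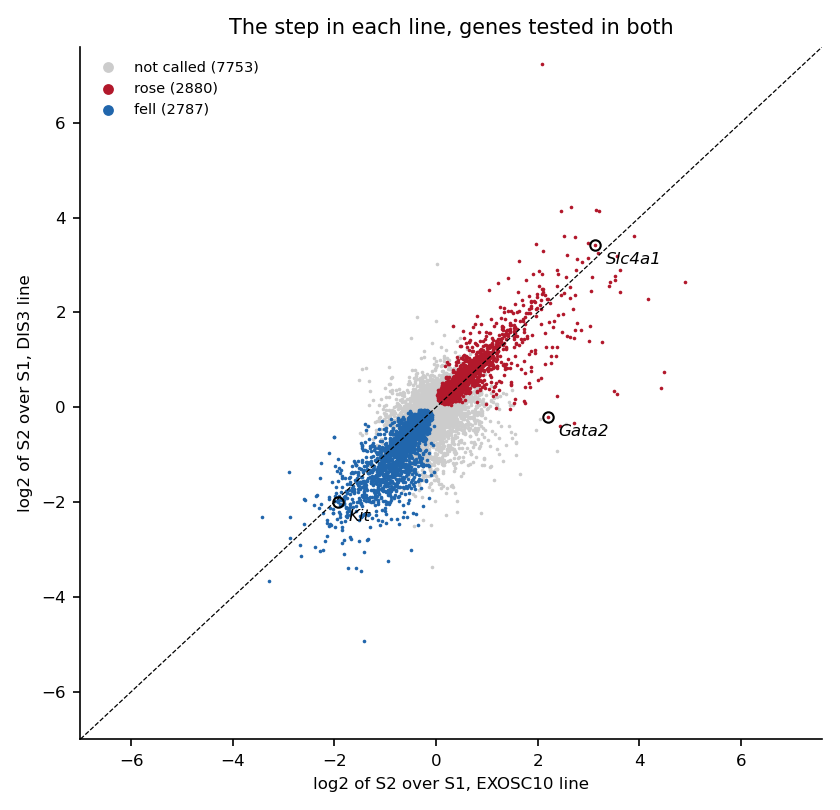
Log2 values (S2 over S1) of 13420 genes in the DIS3 line (y axis) and the EXOSC10 line (x axis), each from 2 samples a fraction. Points are genes, coloured where they rose (2880) or fell (2787) over both lines, the diagonal marks equal steps and Gata2, Slc4a1 and Kit are ringed; most coloured genes lie on the same side of 0 in both lines.

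The membrane list rose in 30 of 31 members in the DIS3 line and 28 in the EXOSC10 line, with medians of 0.83 in the DIS3 line and 0.68 in the EXOSC10 line. The absolute log2 value, its size whatever its sign, was larger in the DIS3 line for all 31. For heme synthesis the medians were 0.84 in the DIS3 line and 0.70 in the EXOSC10 line, and 17 of 20 members had the larger absolute value in the DIS3 line. Over all genes tested in both lines, 7888 of 13420 had the larger absolute value in the DIS3 line. Slc4a1 had log2 values of 3.42 ± 0.08 in the DIS3 line and 3.14 ± 0.08 in the EXOSC10 line, and the difference was not called (difference 0.27 ± 0.11, adjusted p = 0.9999). The progenitor list had medians of -1.05 in the DIS3 line and -0.61 in the EXOSC10 line. As a test of the difference itself, the interaction of line and fraction called 2 of 14307 genes (0.014%), with 593 at an unadjusted p under 0.05. Differences between lines in single members of these lists were therefore not detectable with 2 samples per line and fraction, apart from Gata2.

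Among the genes called was Gata2, which had log2 values of -0.20 ± 0.19 in the DIS3 line and 2.20 ± 0.15 in the EXOSC10 line (difference -2.41 ± 0.24, adjusted p = 0.00524). Its log2 values thus had opposite signs in the lines, positive in the EXOSC10 line. The call of the difference was lost without the DIS3 line S1 replicates 1 and 3 (difference -2.44, adjusted p = 0.0898) or the EXOSC10 line S2 replicates 2 and 3 (difference -2.46, adjusted p = 0.0581), while its size was much the same. Line and whatever else separated the lines' collections cannot be told apart.

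To place the step in the maturation series, the WT samples of S0, S1, S2 and S3 were fitted together, 4 samples a fraction, and the step was tested against the step before it and the one after it. The neighbouring steps share the S1 and the S2 samples with it. Of 16528 genes tested, 3429 had a larger log2 change from S1 to S2 than from S0 to S1 (20.7%) and 3352 a smaller one (20.3%), together 41% of those tested. Against the step from S2 to S3, 2847 had a larger change (17.2%) and 3048 a smaller one (18.4%), together 35.7%. Of the 14307 genes tested for the step and the contrasts, 522 had a larger change than at both neighbours and 662 a smaller one. Of the 2972 risers, 2198 also had a positive value from S0 to S1 and 2554 from S2 to S3. Of the 2907 fallers, 1890 had a negative value from S0 to S1 and 2668 from S2 to S3.

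**Figure D5:**
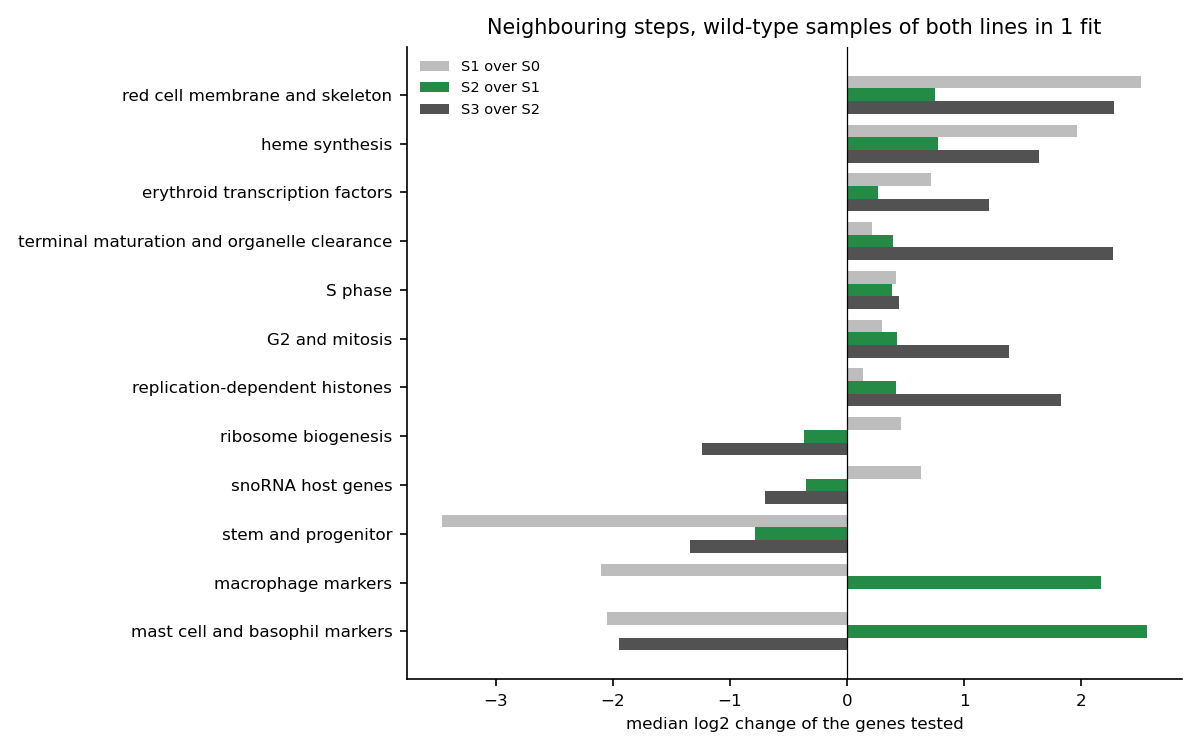
Median log2 change of the members of selected gene lists over the steps from S0 to S1, S1 to S2 and S2 to S3, from 1 fit of all WT samples of these fractions. Each group of 3 bars is a list and each bar the median of its measured members; the red cell membrane list has 2.51, 0.75 and 2.28, and ribosome biogenesis 0.46, -0.37 and -1.24.

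By the medians of the membrane and heme lists the step was the smallest of the 3. Counts of members, here and in the paragraphs that follow, are of differences between steps called at an adjusted p under 0.05. Among the 14307 genes tested for the step, 3340 were called smaller and 2683 larger than in the step before. Against the step after, 2918 were called smaller and 2816 larger. The membrane list had median changes of 2.51 from S0 to S1, 0.75 from S1 to S2 and 2.28 from S2 to S3. Of its 31 members 23 were called smaller than in the step before and 27 smaller than in the step after. Heme synthesis had medians of 1.96, 0.78 and 1.64, with 15 and 13 of 20 members smaller. Slc4a1 had mean levels of 20.1, 125, 1234 and 22758 CPM in S0, S1, S2 and S3. Its change was not called different from that of the step before (difference 0.61 ± 0.36, adjusted p = 0.192) or of the step after (difference -0.90 ± 0.35, adjusted p = 0.0522). Alas2 had 3.47, 13.4, 75.03 and 3305 CPM in S0, S1, S2 and S3. The globin list had medians of 1.57, 2.19 and 4.97, and its genes were still far from their S3 levels in S2: Hbb-bs had 0.824, 2.36, 13.9 and 605 CPM in S0, S1, S2 and S3.

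Terminal maturation genes had medians of 0.21, 0.39 and 2.27, with 15 of 20 rising less than from S2 to S3, and Alox15 had 0.563, 0.1004, 2.61 and 1.004 CPM in S0, S1, S2 and S3. The S phase list had even medians of 0.42, 0.38 and 0.44, whereas G2 and mitosis had 0.30, 0.43 and 1.38, with 24 of 25 members smaller than in the step after. Histone genes had 0.14, 0.42 and 1.83, with 55 of 62 smaller. For both lists the median change was highest from S2 to S3.

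Ribosome biogenesis turned at this step. Its medians were 0.46, -0.37 and -1.24, so that the list was higher in S1 than in S0 and fell from S1 on, and 27 of 28 members had a lower change than in the step before. Ncl had 706, 935, 681 and 311 CPM in S0, S1, S2 and S3. The small nucleolar RNA hosts had 0.63, -0.35 and -0.70, with 11 of 12 lower. Gas5 had 208, 296, 252 and 146 CPM in S0, S1, S2 and S3. Myc was lower at each fraction than at the one before, with 154, 129.8, 69.9 and 21.6 CPM in S0, S1, S2 and S3.

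By their medians, stem and progenitor genes fell most before S1. Their medians were -3.46, -0.79 and -1.34, and in 17 of 22 members the change from S1 to S2 was less negative than the one before. Kit and Myb differed from that median, with a larger relative fall at each later step. Kit had 320.4, 259.6, 66.7 and 9.45 CPM in S0, S1, S2 and S3, and Myb had 470.4, 266, 77.2 and 16.9 CPM in S0, S1, S2 and S3. Macrophage markers ran against the order of the fractions, with medians of -2.10, 2.17 and 0.01. Basophil and mast cell markers had -2.05, 2.56 and -1.95. Cpa3, for example, had 17.7, 0.591, 3.83 and 0.936 CPM in S0, S1, S2 and S3. These medians cover the members that passed the filter, which low markers do only through the fractions where they are high.

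Ifitm1, an interferon-inducible membrane protein gene, had a higher mean in S2 than in S1 and S3. It had 21.6, 0.648, 6.49 and 1.58 CPM in S0, S1, S2 and S3. Over the 8 samples of the step it had 2.30, 1.58, 10.9 and 13.4 CPM in S2, against 0.391, 0.278, 1.26 and 0.851 CPM in S1 (log2 3.29 ± 0.25, adjusted p = 4.45e-07). The S2 values were all above the S1 values and were highest in the EXOSC10 line. Prss34 had 0.273, 0.0712, 2.96 and 0.650 CPM in S0, S1, S2 and S3. Both were high where basophil markers were high, and the part of those cells in Ifitm1 was not tested.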

How the data were processed

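Total RNA of sorted wild-type fetal liver fractions was measured, and the members of the comparison and the gene lists were chosen with earlier results of these data known. The submitters' processing notes name build GRCm38, the aligner HISAT2 2.1.0, Subread with featureCounts 1.6.4, and DESeq2 1.20.0 under R 3.5.1; the annotation release and strand setting were not given in the sources used here. The deposited values are raw counts per Ensembl gene, not normalised, for 49585 genes. Of these 49326 were found in GENCODE M21 for names and coordinates, and the other 259 held 0.0446% of the counts.

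Libraries of a group whose chi-square statistic per degree of freedom was under 1.5 (genes with at least 20 counts) were summed, which left 8 samples of 7.49 M to 34.3 M counts. edgeR 4.0.16 in R 4.3.3 was run with TMM scaling, filterByExpr, the quasi-likelihood test and line as a covariate, tested on simulated data first, with p-values adjusted after Benjamini and Hochberg over all tested genes. CPM values use TMM-scaled library sizes. Shares of counts were compared by exact permutation over samples.

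Genes were named by rule: the 12 protein-coding genes of at least 5 CPM with the largest rise and fall that moved alike in all 4 pairs, the 5 long non-coding RNAs likewise, up to 3 called members per direction and the highest by CPM of each list, and any member of the heme, globin, erythroid factor and cytokine lists; other members were named after their values were seen, and some genes are not reported here. Alternatives were other scalings and filters, DESeq2 1.42.0, glmTreat, each library as a sample, no line term, the replicate block, all wild-type samples in 1 fit, and each sample left out.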

Additional observations from a re-analysis of the deposited data

Results flagged for a closer look

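The step differed between the lines, by the interaction test of edgeR over 14307 genes, for 2 genes. Gata2, named here, had a difference of -2.41 on the log2 scale (DIS3 line minus EXOSC10 line). Its log2 value of S2 over S1 was positive in the EXOSC10 line and negative in the DIS3 line.

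Single samples were also looked for in the 4 S2 and the 4 S1 samples, both lines together, over the genes named and 13 summed shares, as an extreme value whose gap to the others, divided by the group's range, was above Dixon's critical value for 4 samples. Such a sample was found in 22 of 350 groups, and chance gives about 1 in 20. In S2 the DIS3 line replicate 2 had the low value of Fcnb (1.72 CPM), Ftl1 (234 CPM), Hmga2 (1.15 CPM) and Mpo (95.8 CPM), and the high value of Igf2bp2 (1.94 CPM) and Piezo1 (648 CPM). The DIS3 line S2 replicates 1 and 3 were high in Jak2 (111 CPM) and Myb (88.2 CPM) and low in Ppox (245 CPM). Of the EXOSC10 line S2 samples, replicate 1 was high in Ackr1 (15.5 CPM) and low in Bnip3l (126 CPM), and replicates 2 and 3 were high in summed megakaryocyte markers (72.4 CPM).

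In S1 the DIS3 line replicate 2 was high in Ank1 (743 CPM), Ttc37 (50.8 CPM) and Wdr12 (112 CPM), and replicates 1 and 3 were low in Epor (188 CPM). The EXOSC10 line S1 replicate 1 was low in Car2 (402 CPM) and high in Gata2 (7.17 CPM) and in summed hepatocyte markers, at 65.7 CPM against 7.08 to 11.9 CPM in the other 3 S1 samples. The EXOSC10 line S1 replicates 2 and 3 were high in Abcb10 (179.6 CPM), Rhd (123 CPM) and Spred1 (52.6 CPM).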

How the results depend on the processing

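The step's counts of 2972 genes that rose and 2907 that fell kept within 1.5 times under other scalings, filters, DESeq2 and every left-out sample. With 1 sample left out 2642 to 2899 rose and 2347 to 2895 fell. Under the other scalings and filters and with DESeq2, 2693 to 3122 rose and 2523 to 3025 fell. The counts were 476 and 511 when tested against a fold of 1.5 with glmTreat, and 1939 and 1982 with all wild-type sorted samples in 1 fit. The median log2 value of all genes moved by no more than 0.012 under any scaling. The numbers of the replicates were not taken to pair the samples, since 1 of the 2 correlations of deviations was under 0.1 (0.154 in the DIS3 line and 0.049 in the EXOSC10 line). With the replicate block in place of line 3177 genes rose and 3081 fell, in the DIS3 line alone 2902 rose in place of 1969 and 2803 fell in place of 1964, and in the EXOSC10 line 1513 rose and 1463 fell.

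Calls of a difference between the lines depended on the setting: 150 genes without a filter on low counts, 1 with a minimum of 1 CPM in 4 samples, 12 with DESeq2, 146 with every library as a sample, and 0 to 18 with 1 sample left out. In the DIS3 line alone 1115 to 1824 rose and 963 to 1777 fell with 1 sample left out, the lowest without S1 replicates 1 and 3, and 1149 fell with DESeq2. In the EXOSC10 line 1048 to 1982 rose and 863 to 1846 fell, the lowest without S2 replicates 2 and 3, and 983 fell with DESeq2. The cause was not tested. With both S1 samples highest in granulocyte markers left out, chosen after the data were seen, 31 of 233 called named genes lost their call, 30 membrane genes and 15 heme genes still rose, 25 ribosome biogenesis genes fell, and 7 granulocyte markers fell. Of the same 233 genes, 44 lost their call with all wild-type sorted samples in 1 fit and 121 with glmTreat. The 44 included Gata1, Klf1, Rrm2, Gas5, Hist1h1b, Pvt1 and Malat1. Depth limits the small RNAs, globins and markers of rare cells.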
